A study of Homo sapiens with 6 samples.

Results

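FLI1 knockdown was compared with the GFP control across the transcriptome of A673, an established line of Ewing sarcoma, a bone and soft tissue tumour driven by the EWSR1-FLI1 fusion gene. An esiRNA is a pool of short interfering RNAs cut enzymatically from a long double-stranded RNA. A673 is a single established line, and the stretch of FLI1 that the pool covers is not stated in the labels. All cells were grown in DMEM with serum and were taken 72 h after transfection, so the 2 groups differ by the esiRNA alone as far as the labels say. The groups are esiGFP (the non-targeting control) and esiFLI1 (labelled as EWS-FLI1 knockdown), with libraries 1 and 2 in each. Another group, esiUSP9X, received esiRNA against the deubiquitinase USP9X and enters the model for its spread and as a second reference. These are 4 of the 6 libraries of the series. The table listed 25268 gene symbols, of which 12024 reached 1 FPKM (fragments divided by the transcript's length and by the library's mapped fragments) in at least 2 of the 4 libraries. Genes listed at 0 in both esiGFP libraries were set aside (4 genes), which left 12020 genes.

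EWS-FLI1 joins the amino-terminal part of EWSR1 to the DNA-binding domain of the ETS factor FLI1. It binds GGAA repeats and single ETS sites, where it turns on genes such as NR0B1, NKX2-2 and CCND1, and it keeps a second large set of genes low, many of them genes of matrix, adhesion and the cytoskeleton that mesenchymal cells use. Ewing sarcoma is thought to start in a mesenchymal or neural crest derived progenitor, and loss of the fusion has been described as moving cell lines toward a mesenchymal state.

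The promoters of DKK1, POSTN, ANKRD1 and TGFB2, which were among the genes that rose most, and of NR0B1, a direct target of the fusion that fell, are shown to place these genes' start sites. They come from RefSeq on GRCh38.p14, are read 5′ to 3′ on the gene's strand, and stop at the base before the start, except that of ANKRD1, which stops 101 bases before it. Capitals mark matches, on either strand, to TATAAA (the TATA box), GGAATG (the letters TEAD factors bind), TGANTCA (AP-1) and CACGTG (the E-box). No match overlaps another in these stretches.
DKK1, chr10:52314181-52314280, + strand: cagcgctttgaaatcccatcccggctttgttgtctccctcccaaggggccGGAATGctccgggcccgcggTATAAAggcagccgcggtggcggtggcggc
POSTN, chr13:37598769-37599018, - strand: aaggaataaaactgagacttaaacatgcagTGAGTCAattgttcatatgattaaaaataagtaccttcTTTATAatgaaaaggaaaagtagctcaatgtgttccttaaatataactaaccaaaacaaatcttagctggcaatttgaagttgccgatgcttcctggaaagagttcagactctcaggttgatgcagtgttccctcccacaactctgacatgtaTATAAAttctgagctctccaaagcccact
ANKRD1, chr10:90921188-90921337, - strand: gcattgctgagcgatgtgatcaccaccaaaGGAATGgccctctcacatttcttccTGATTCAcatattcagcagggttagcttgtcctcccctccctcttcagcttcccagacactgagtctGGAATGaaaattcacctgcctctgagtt
TGFB2, chr1:218345136-218345335, + strand: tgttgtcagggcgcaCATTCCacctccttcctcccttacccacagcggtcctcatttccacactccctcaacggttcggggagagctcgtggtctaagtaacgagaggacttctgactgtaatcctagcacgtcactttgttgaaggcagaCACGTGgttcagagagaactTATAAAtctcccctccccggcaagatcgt
NR0B1, chrX:30309391-30309490, - strand: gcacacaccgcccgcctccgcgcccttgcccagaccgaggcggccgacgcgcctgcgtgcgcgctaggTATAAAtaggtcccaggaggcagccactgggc
Among the 9653 tested genes with a RefSeq promoter, the 250 bases before the start held TATAAA in 5.10%, GGAATG in 9.19%, TGANTCA in 3.57% and CACGTG in 9.09%. CCGGAAGT, a strong ETS site, was in 7.75%, and 3 copies of GGAA in tandem were in 0.0622%. Counted from the start, the TATAAA of DKK1 begins at -30, that of TGFB2 at -29 and that of NR0B1 at -32, and POSTN has a match at -29 and one on the other strand at -182. A promoter was matched for 75.2% of the genes that rose by at least 2-fold in both pairs and for 64.6% of those that fell so. With so many members lacking an entry, motif shares within these sets are void and are not given. The printed promoters were picked by hand together with the motifs to mark, so their matches do not show how common a match is. A match is a description of the letters, not evidence of binding.

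The targeted gene was lower in both esiFLI1 libraries. FLI1 reads, to which the fusion's 3′ end contributes, gave 24.1 and 36.4 FPKM in the esiGFP libraries and 12.7 and 14.1 in the esiFLI1 libraries, so that 52.5% and 38.8% of the paired control remained, and the groups did not overlap. On the log2(FPKM + 1) scale used for all tests, FLI1 fell by 1.09 (SE 0.12, limma adjusted p = 2.3e-04; 0.13 without the replicate block). EWSR1, to which the 5′ end of the fusion transcript contributes, stood at 105 and 117 FPKM with esiGFP and 94.1 and 84.9 with esiFLI1. It was called lower by 0.31 (SE 0.11, limma adjusted p = 0.045), and this call was lost on leaving out esiGFP 2 (0.38), esiFLI1 2 (0.25), either esiUSP9X library (0.076 and 0.078) or the block (0.49).

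The FPKM of a library summed to 781732 to 907926, and 11310 to 12071 genes reached 1 FPKM. A single microRNA symbol, MIR6723, took 33.9% and 41.8% of the sum in esiGFP and 35.8% and 50.9% in esiFLI1. The number of reads per library is unknown, and a gene listed at 0 may still be expressed. The labels do not say that replicates are separate cultures, and p-values then measure only the spread between these samples. In bulk RNA, fewer cells of a type and less RNA per cell cannot be told apart. Of the Ewing sarcoma markers, CD99 was listed at 0 in all 4 libraries, and the other 7 were measured.

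Short marker lists of other lineages held defining markers near 0 together with members that changed, and their part in the results was not tested. Of 6 blood cell markers CD3E and HBB were listed at 0 in all 4 libraries and PTPRC reached 0.0201 FPKM. CD68, a lysosomal protein of macrophages, rose from 3.77 and 2.73 to 7.59 and 4.49 FPKM, a call lost without esiFLI1 1 (adjusted p = 0.071), and the list's sum went from 3.95 and 2.87 FPKM to 7.87 and 4.64. Of 4 endothelial markers CDH5 reached 0.0571 FPKM, and KDR, a VEGF receptor, rose from 0.106 and 0.0885 to 1.3 and 1.33 (log2 change 1.08, limma adjusted p = 3.6e-04; 0.017 without the block), with sums of 0.21 and 0.143 and 1.5 and 1.57 FPKM. KDR had passed the filter only through esiFLI1 and so could not fall. Of 5 epithelial markers CDH1 was listed at 0 and EPCAM reached 0.343 FPKM, while the keratin KRT18 was at 191 and 144 and 221 and 129 (adjusted p = 0.86) and KRT8 rose from 7.63 and 4.12 to 21.3 and 12. The epithelial sums were 199 and 148 FPKM with esiGFP against 243 and 141 with esiFLI1. Of 4 neuronal markers RBFOX3 reached 0.105 FPKM, and TUBB3 and SYP fell, the list summing to 227 and 133 and to 160.0 and 86.9 FPKM. Neither of those falls was called without esiFLI1 2 (adjusted p = 0.058 and 0.13), nor that of SYP without esiGFP 2 (0.12). RBFOX3 and STMN2 did not pass the filter, and with no filter on low values 1 of the 4 neuronal markers was called higher and 1 lower. The skeletal muscle factor MYOD1 was listed at 0.

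Most of the measured transcriptome moved a little and a small part moved far, mainly upward. Calls were made at an adjusted p under 0.05, adjusted over the 12020 genes. In limma 5171 genes were called (43% of those tested), 2520 higher (21%) and 2651 lower (22.1%), while 6139 had an unadjusted p under 0.05. Of the calls, 2845 (55.0%) were under 1.5-fold. Changes of at least 2-fold in the same direction in both pairs were found for 504 genes that rose (4.19% of those tested) and for 113 that fell (0.94%). At 4-fold these counts were 99 and 13, and at 8-fold 24 and 5. The naming rule used below leaves out small RNAs and genes whose groups overlap, among others. Its largest fall, that of ATF5, was -2.21 and -2.52 on the log2 scale in the 2 pairs. The falls counted at 8-fold therefore lie outside that rule. The libraries of the 2 groups did not overlap for 2391 genes that were higher in esiFLI1 (19.9%) and 2070 that were lower (17.2%), and for 66.4% of the called genes.

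The small calls rest on pairing libraries by replicate number. The difference of replicate 2 from replicate 1, averaged over esiGFP and esiFLI1, had a median size of 0.42 on the log2 scale. The change between groups had a smaller median size, 0.27. This replicate difference tracked the GC content of the transcript (r = -0.83 across 11341 genes, as a description), and the change between groups hardly did (r = -0.11). Without the replicate block limma called 344 genes, 316 higher and 28 lower, of which 312 were among the 617 that changed by at least 2-fold in both pairs. Rescaling each library without MIR6723 moved the median change of all genes from -0.03 to 0.10 and the share of calls that were higher from 48.7% to 69.3%. The balance of small rises and falls therefore depends on the scaling, and list counts are read beside the share over all genes.

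**Figure D1:**
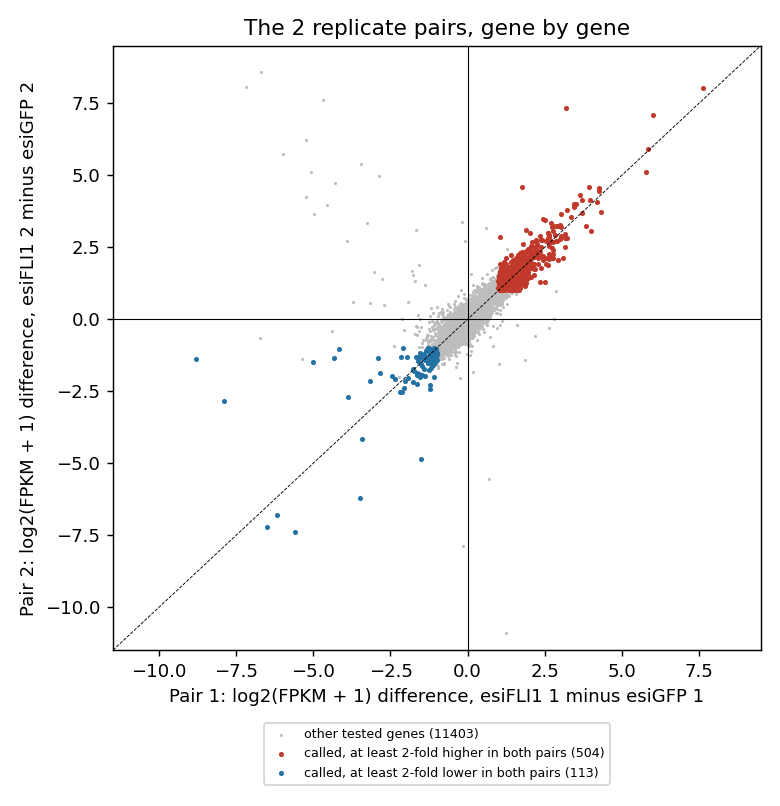
Each point is 1 of the 12020 genes, with the log2(FPKM + 1) difference between esiFLI1 and esiGFP in replicate pair 1 on the x axis and in pair 2 on the y axis; the dashed line marks equality. The 504 genes that rose and 113 that fell by at least 2-fold in both pairs are coloured, and grey points at the upper left are genes whose pairs went opposite ways.

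The share of calls in each direction differed with the level of the gene. Of the 2965 genes with a mean of 1 to 5 FPKM over the 4 libraries, 29.9% were called higher and 10.9% lower. Of the 820 genes at 100 FPKM and over, 11.5% were called higher and 43.7% lower, with a median change of -0.26. Genes that rose by at least 2-fold in both pairs had a median of 2.03 FPKM in esiGFP and those that fell 30.1, against 12 for all genes. These sets were chosen with the same esiGFP values, and a gene under 1 FPKM in esiGFP cannot fall by 2-fold on this scale. The gap between the 2 medians is therefore partly set by the rule. The 2 sets differed in the transcript too: the median length was 3949 nt for the risers and 2468 nt for the fallers, and the median GC content was 47.4% and 52.7% (all genes 3657 nt and 47.8%). Of the tested genes, 341 passed the filter only through esiFLI1 and 67 only through esiGFP. Adding 1 to FPKM also shrinks the change of low genes on the log2 scale.

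**Figure D2:**
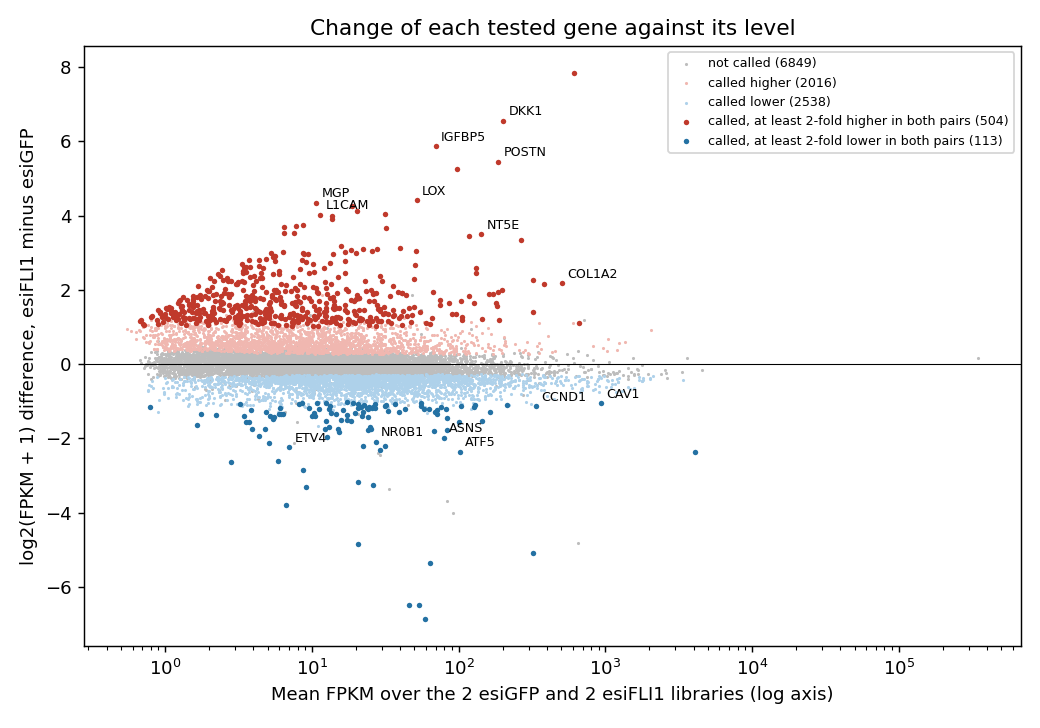
Log2(FPKM + 1) difference, esiFLI1 minus esiGFP, against the mean FPKM over the 4 libraries (log axis), for the 12020 tested genes. Calls of at least 2-fold in both pairs are dark, with 504 above and 113 below the line; most dark red points lie under 20 FPKM, and over 100 FPKM the pale lower calls outnumber the higher ones.

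Secreted and matrix proteins stood at the head of the rises. DKK1, a secreted Wnt inhibitor, was 4.23 and 2.38 FPKM in the esiGFP libraries and 334 and 467 in the esiFLI1 libraries (log2 change 6.56, SE 0.23). POSTN, the matrix protein periostin, was 3.59 and 12.7 and 252 and 481 FPKM (5.46, SE 0.19). Both rose steeply in each pair, and their groups lay far apart. IGFBP5, which binds insulin-like growth factors, was 1.83 and 0.932 FPKM under esiGFP and 161 and 115 under esiFLI1. LOX, which crosslinks collagen, was 3.02 and 4.27 and 76.8 and 123 FPKM, and its relative LOXL2 was 5.94 and 2.15 and 74.9 and 45.8. TGFB2, a growth factor that induces matrix genes, was 1.06 and 0.828 FPKM with esiGFP and 30.9 and 42.8 with esiFLI1. In each of these genes the lowest esiFLI1 library stood far above the highest esiGFP library.

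Intracellular and membrane proteins were among the largest rises as well. SPRY1, which growth factor receptors induce and which then dampens their signal, was 3.11 and 2.28 FPKM in the esiGFP libraries and 63.2 and 56.6 in the esiFLI1 libraries. CRYAB, a small heat shock protein, was 1.66 and 0.91 and 47.6 and 31.1 FPKM. NT5E, the ecto-enzyme CD73 that mesenchymal stromal cells carry, was already at 24.1 and 20.3 FPKM and reached 231 and 295. The 20 largest rises by the naming rule spanned log2 changes of 3.35 to 6.56 (largest limma adjusted p, 1.6e-05), with no overlap between groups, which the rule required. Without the block, 19 of the 20 were still called, all but COL1A1 (adjusted p = 0.098), a collagen gene whose libraries were 29.6 and 8.99 FPKM under esiGFP and 313 and 117 under esiFLI1.

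Some genes went from near silence to a clear level. By a rule of under 1 FPKM in both libraries of a group and at least 10 in both of the other, 10 genes rose past both limits in esiFLI1 and 0 fell past them. MGP, an inhibitor of calcification, was 0.0264 and 0.158 FPKM with esiGFP and 18.6 and 24.3 with esiFLI1. COL11A1, a fibrillar collagen chain of cartilage, was 0.0619 and 0.068 and 13 and 12.9. These 2 had the lowest control values of the 10. L1CAM, a neural adhesion molecule, was 0.542 and 0.182 FPKM in the esiGFP libraries and 29.9 and 14.7 in the esiFLI1 libraries, and ANKRD1, a nuclear cofactor and common YAP target, was 0.892 and 0.595 and 22.7 and 31. TDO2, which breaks down tryptophan, was 0.611 and 0.952 and 20.1 and 33.4 FPKM, and MME, the membrane peptidase neprilysin, was 0.382 and 0.267 and 14.9 and 19.2. The others were the complement regulator CFI, the secreted protease HTRA1, the matrix protein MATN2 and the calpain relative CAPN6. All 10 were also called without the block (largest limma adjusted p, 0.013), but the rule had picked them for this gap. Each had passed the filter only through esiFLI1, so these calls are no separate support.

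By the naming rule, which leaves out small RNAs, the falls were smaller in size than the rises. ATF5, a stress-responsive transcription factor, had 213 and 128 FPKM under esiGFP and 45.5 and 21.5 under esiFLI1 (log2 change -2.36, SE 0.11). ETV4, an ETS factor, was 12.9 and 11.5 and 2.31 and 1.36 FPKM (-2.24, SE 0.12). Replicate 1 was the higher library of each group in both genes, and the groups did not overlap, which the rule required. TRIB3, a pseudokinase of the amino acid stress response, was 51.5 and 23.1 FPKM with esiGFP and 9.38 and 4.73 with esiFLI1, and ASNS, which makes asparagine, was 115 and 140.3 and 29.7 and 33. SLC7A5, a transporter of large neutral amino acids, was 138 and 71.9 and 43.1 and 18.1 FPKM. These 3 genes and CHAC1, which degrades glutathione (9.88 and 3.56 to 1.43 and 0.823 FPKM), are all known targets of the stress factor ATF4.

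The 20 largest falls also included transcription factors and junction proteins. FEZF1, a forebrain transcription factor, was 18.5 and 20.6 FPKM in the esiGFP libraries and 5.56 and 4.73 in the esiFLI1 libraries, and SOX1, a neural progenitor factor, was 5.6 and 6.03 and 1.35 and 1.29. CCK, a neuropeptide, was 3.57 and 2.44 and 0.165 and 0.377 FPKM. CLDN1, a tight junction protein, was 134 and 123 FPKM under esiGFP and 39.8 and 34.5 under esiFLI1, and PKP1, a desmosome protein, was 176 and 127 and 65.3 and 37.8. PPP1R1A, an inhibitor of protein phosphatase 1, was 23 and 18.5 and 6.07 and 3.31 FPKM. The 20 largest falls spanned log2 changes of -2.36 to -1.56 (largest limma adjusted p, 1.7e-04). Without the block 7 of them were called: ETV4, ASNS, C7, CLDN1, FEZF1, CCK and SOX1.

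**Figure D3:**
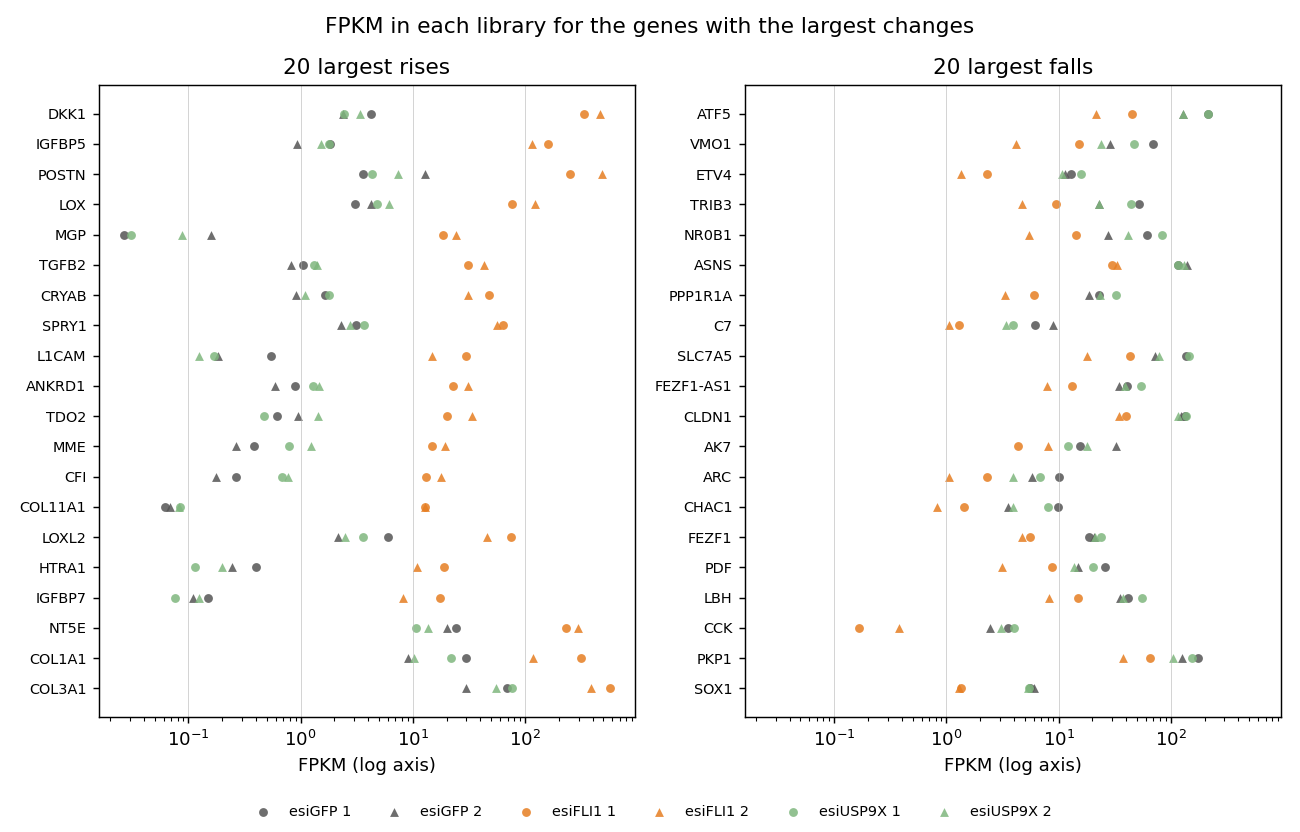
FPKM (log axis) in each of the 6 libraries for the genes with the 20 largest rises (left) and 20 largest falls (right), 1 symbol per library. Orange esiFLI1 symbols stand to the right of both other groups for every riser and to the left for every faller, and the green esiUSP9X symbols mostly lie near the grey esiGFP symbols. The naming rule required the gap between esiFLI1 and esiGFP.

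Counted in FPKM rather than in folds, other genes led. TMSB4X, which binds actin monomers, gained most, from 1615 and 1188 to 3432 and 2008 FPKM. COL1A2, a collagen chain, went from 275 and 102 to 1144 and 512 FPKM, and the intermediate filament protein VIM from 1198 and 985 to 1824 and 1463. SPARC, a collagen-binding matrix protein, went from 113 and 106 to 548 and 513 FPKM, with little spread between replicates. ANXA2, MYL6, SERPINE2, IGFBP2, TGFBI and COL3A1 made up the rest of the 10 largest gains. The 10 largest losses among called genes held 6 ribosomal proteins, the chaperones HSP90AA1 and HSPA8, GAPDH and CAV1. CAV1, the coat protein of caveolae, went from 1191 and 1344 to 582 and 637 FPKM (log2 change -1.05, SE 0.10) and HSPA8 from 1465 and 1772 to 971 and 987. The ribosomal proteins, GAPDH and the chaperones have near-identical copies in the genome, so their values are uncertain. GAPDH, RPL8, RPS2 and RPS15A lost their call without esiFLI1 2 or either esiUSP9X library, and GAPDH and RPS15A also without esiGFP 2 (largest adjusted p, in that order, 0.14, 0.14, 0.12 and 0.22). Rescaled without MIR6723, RPS2 and RPS15A lost it too (0.058 and 0.054). Of the 10 losses only CAV1 was called without the block (adjusted p = 0.044).

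The gene lists below were not tested as sets: each is given by its counts and median beside the whole table, where 21% of genes rose, 22.1% fell and the median change was -0.03. Members that passed the filter only through esiFLI1, as 341 of the tested genes did, could not fall by their selection. Counts that leaving out 1 library moves by over 1.5 times are followed by the count without it; counts of 3 or fewer moved by at most 2 genes and are given without this. The measured Ewing sarcoma markers all fell (7 of 7, median -1.29), and their summed level went from 864 and 861 FPKM in esiGFP to 382 and 364 in esiFLI1. Several are known targets of the fusion, so this list is no independent measure of it. NR0B1, an orphan nuclear receptor that Ewing cells need, was 61.4 and 27.6 FPKM with esiGFP and 14.3 and 5.46 with esiFLI1. NKX2-2, a homeobox repressor used in diagnosis, was 16.2 and 13.9 and 6.09 and 4.15 FPKM. NPY1R, a neuropeptide Y receptor, was 94.9 and 109 and 36.4 and 43.5. PRKCB, a protein kinase C, was 48.6 and 63.7 and 21.9 and 22.6 FPKM, STEAP1, a surface metalloreductase, 93.8 and 104 and 39.7 and 40.5, and CCND1, cyclin D1, 472 and 459 and 220.0 and 204. The groups did not overlap in any of the 7, and 4 were called without the block, NPY1R, PRKCB, STEAP1 and CCND1.

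Cytokines and chemokines that passed the filter rose in their majority. Of 13 tested cytokines and chemokines, 10 rose and 1 fell (median 1.51; 7 and 0 without the block), and 6 of the 13 had passed the filter only through esiFLI1. With no filter on low values 16 of 34 rose and 2 fell, and the median was 0.33. The sum over the 37 listed genes was 406.6 and 92.1 FPKM with esiGFP and 270.2 and 139.5 with esiFLI1, so it fell in pair 1 and rose in pair 2. CCL2, a monocyte attractant, was 3.12 and 2.21 FPKM in the esiGFP libraries and 26.9 and 15.9 in the esiFLI1 libraries, and CXCL8, a neutrophil attractant, was 0.491 and 0.391 and 4.23 and 7.5. IL32, a proinflammatory cytokine, was 0.979 and 0.137 and 17.4 and 7.03 FPKM. CXCL12 and CXCL14, chemokines of stromal cells, reached 2.53 and 1.69 and 6.81 and 4.62 FPKM from 0.124 and 0.0333 and 0.77 and 0.24. IL6 and CXCL1 were not tested, at no more than 0.0979 and 0.0407 FPKM in any of the 4 libraries. Of the NF-kappaB pathway and its targets, a list that shares CCL2 and CXCL8, 10 of 21 rose and 4 fell (median 0.32), but 1 fell without either esiGFP library or esiFLI1 1 and 2 without esiFLI1 2. Its risers included the adhesion receptors ICAM1 (1.77 and 0.657 to 7.42 and 4.96 FPKM) and VCAM1 (1.08 and 1.16 to 3.44 and 4.35), and the inhibitor NFKBIB fell (17.3 and 12.2 to 11 and 4.93).

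Growth factors moved both ways, with 8 of 16 higher and 4 lower (median 0.33; 2 lower without esiGFP 2 or either esiFLI1 library). Of the 16, 2 had passed the filter only through esiFLI1. With no filter on low values 9 of 31 rose and 2 fell (median 0.07). PTN, the heparin-binding growth factor pleiotrophin, was 0.152 and 0.0959 FPKM under esiGFP and 2.76 and 3.24 under esiFLI1. Its close relative MDK, midkine, was 290.1 and 84.6 and 659.8 and 261 FPKM, so its groups overlapped although both pairs rose. ANGPT1, a ligand of the TIE2 receptor, was 2.11 and 3.16 and 7.73 and 12.7 FPKM, and CSF1, a macrophage growth factor, was 2.21 and 0.97 and 7.09 and 3.81. GDNF, a ligand for the RET receptor complex, fell from 7.32 and 5.3 to 3.19 and 2.86 FPKM. Of these 16 genes only PTN was called without the block (limma adjusted p = 0.0093). PTN had passed the filter only through esiFLI1 and so could not fall.

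Among receptors, rises outnumbered falls. Of 24 tested receptor tyrosine kinases 15 rose and 2 fell (median 0.41; 3 and 0 without the block), and 2 had passed the filter only through esiFLI1. With no filter on low values 13 of 36 rose and 3 fell (median 0.26). AXL, a receptor for GAS6 and protein S, was 2.49 and 0.952 FPKM with esiGFP and 17.4 and 12.2 with esiFLI1. PROS1, which encodes protein S, was 11.3 and 11.8 and 21.8 and 31.6. Receptor and ligand thus both rose, in both pairs. FLT1, a VEGF receptor, was 1.44 and 2.01 and 7.57 and 10.5 FPKM, PDGFRB 18.4 and 11.6 and 54.9 and 31.5, and KIT, the stem cell factor receptor, 1.63 and 1.86 and 4.15 and 4.69. RET fell from 17.3 and 14 to 12.9 and 8.43 FPKM, as its ligand GDNF did.

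Of 39 tested G protein-coupled receptors 22 rose and 5 fell (median 0.50; 3 fell without esiGFP 2, and 11 rose and 1 fell without the block), and 6 had passed the filter only through esiFLI1. With no filter on low values 25 of 63 rose and 5 fell (median 0.13). Protease-activated receptors, which are switched on by cleavage, were among the rises. F2R, the thrombin receptor, was 72.4 and 71.5 FPKM in the esiGFP libraries and 275 and 265 in the esiFLI1 libraries, F2RL2 14.1 and 11.9 and 61.4 and 56.5, and F2RL1 0.3 and 0.0953 and 2.88 and 2.91. For each of the 3 the groups lay far apart. GPR126, an adhesion receptor of Schwann cell development, was 0.573 and 0.374 and 7.09 and 9.32 FPKM. ADORA1, a receptor for adenosine, which CD73 produces, was 0.385 and 0.229 and 9.61 and 4.07. Cytokine receptors went both ways, 12 of 29 higher and 8 lower (median 0.21; 5 lower without esiFLI1 2): IL7R rose from 0.588 and 0.74 to 4.06 and 4.25 FPKM and IL13RA1 from 10.7 and 10.9 to 28.2 and 34.7, while the death receptor FAS fell from 33.7 and 40.4 to 13.6 and 19.9. Rescaled without MIR6723, 17 cytokine receptors rose and 5 fell.

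Adhesion molecules of the immunoglobulin and protocadherin families had 27 of 38 members higher and 2 lower (median 0.57; 4 and 0 without the block). Of the 38, 3 had passed the filter only through esiFLI1. PCDH18, a protocadherin, was 4.09 and 5.68 FPKM under esiGFP and 38.8 and 62.7 under esiFLI1, and the giant cadherins FAT3 and FAT4 were 0.536 and 0.513 and 7.43 and 9.18 in esiGFP and 2.38 and 2.88 and 18.6 and 24.7 in esiFLI1. Contractile genes of smooth muscle and myofibroblasts followed, with 10 of 15 higher and 1 lower (median 1.27; 3 and 0 without the block). Of the 15, 2 had passed the filter only through esiFLI1. TPM1, a tropomyosin, was 37.7 and 35.5 FPKM with esiGFP and 243 and 213 with esiFLI1, and CALD1, caldesmon, 59.7 and 73.6 and 193 and 323. MYLK, the kinase that activates smooth muscle myosin, was 0.885 and 0.734 and 7.13 and 7.85 FPKM, and its substrate MYL9 1.69 and 2.37 and 10.2 and 8.32.

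Markers of several mesenchymal lineages that passed the filter were higher side by side. The lists are not separate, since COL1A1 is in both the fibroblast and the osteogenic list. Of 7 fibroblast and mesenchymal markers 5 rose and 1 fell (median 1.45), and their summed level went from 429 and 189 FPKM in esiGFP to 1817 and 993 in esiFLI1. COL1A2 alone gave 275 and 102 FPKM of the esiGFP sums and 1144 and 512 of the esiFLI1 sums. THY1 was the exception, from 54.9 and 30.1 to 40.9 and 18.3 FPKM, a fall that lost its call without esiFLI1 2 (adjusted p = 0.057), and ENG was 25.3 and 12.8 and 27.9 and 13.6 (adjusted p = 0.46). Osteogenic markers rose in 6 of 9 and fell in 1 (median 1.11). SPP1, osteopontin, was 1.08 and 1.2 FPKM in the esiGFP libraries and 13.1 and 19.6 in the esiFLI1 libraries, and RUNX2, the master factor of bone, 2.39 and 3.84 and 5.9 and 10.1. Chondrogenic markers rose in 7 of 8, among them SOX9 from 11.1 and 10.6 to 19.8 and 20.7 FPKM and MATN3 from 1.89 and 2.2 to 4.42 and 5.43. Of these 8, 2 had passed the filter only through esiFLI1. Adipogenic markers were split, 4 of 8 higher and 1 lower: LPL, lipoprotein lipase, rose from 2.04 and 1.88 to 3.74 and 4.54 FPKM, and CEBPB fell from 42.1 and 15.8 to 15 and 6.24. Without the block each of these 4 lists had 1 or 2 rises. Of the osteogenic and of the adipogenic markers tested, 1 each had passed the filter only through esiFLI1. With no filter on low values 6 of 16 osteogenic markers rose and 1 fell (median 0.14). The same setting gave 7 of 17 chondrogenic markers higher and 1 lower (0.31), and 5 of 16 adipogenic markers higher and 2 lower (0.05).

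Neural crest and Schwann cell markers had 6 of 13 higher and 4 lower (2 without esiGFP 2 and 1 without esiFLI1 2), with a median of -0.34 that turned to 0.20 when libraries were rescaled without MIR6723. Of the 13, 4 had passed the filter only through esiFLI1, L1CAM and PMP22 among them. Beside L1CAM, the myelin protein PMP22 rose from 0.913 and 0.762 to 9.44 and 7.18 FPKM and the intermediate filament nestin, NES, from 17.8 and 12.8 to 52.8 and 40.3. NGFR, the low-affinity neurotrophin receptor, fell from 6.41 and 5.97 to 3.75 and 1.88 FPKM. Axonal and synaptic genes rose in 8 of 22 and fell in 4 (median 0.14; 2 fell without esiFLI1 2): GAP43, a growth cone protein, rose from 8.88 and 11.2 to 55.4 and 29.2 FPKM, the neurofilament NEFL from 4.18 and 4.28 to 10.3 and 10.7, and ENO2, neuronal enolase, fell from 79.1 and 41.1 to 34.8 and 16.6.

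Transcription factor families were mixed. Homeobox factors outside the HOX clusters rose in 15 of 47 and fell in 12 (median 0.11; 7 fell without esiGFP 2 and 4 without esiFLI1 2). PRRX1, a factor of limb and craniofacial mesenchyme, was 0.128 and 0.106 FPKM under esiGFP and 2.35 and 3.02 under esiFLI1. POU3F1, a POU domain factor, fell from 31.1 and 16.4 to 14.8 and 7.6 FPKM. Nuclear receptors rose in 8 of 20 and fell in 4 (median 0.18), with RARB, a retinoic acid receptor, from 0.143 and 0.17 to 2.12 and 2.82 FPKM and the glucocorticoid receptor NR3C1 from 4.4 and 6.08 to 10.4 and 16.9. Krueppel-like, GATA, forkhead and TWIST factors rose in 15 of 38 and fell in 6 (median 0.17; 9 and 3 without esiFLI1 2). FOXO1, which insulin signalling holds back, was 1.59 and 1.66 FPKM with esiGFP and 5.86 and 7.17 with esiFLI1. ID2, an inhibitor of basic helix-loop-helix factors, fell from 201 and 195 to 91.7 and 116 FPKM. Without the block 2, 2 and 4 members of the 3 lists were higher and 0 were lower.

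Biosynthetic genes fell broadly and by small steps. Of 47 ribosome biogenesis factors 45 fell and 0 rose (median -0.68), 39 of them with no overlap between groups, and their range was narrow, from -1.19 to -0.31. BOP1, a factor of large subunit assembly, was 118 and 57.6 FPKM in the esiGFP libraries and 52.3 and 23.9 in the esiFLI1 libraries, RRS1 42.4 and 42.8 and 21.4 and 17.3, and NOP2, an RNA methyltransferase, 51.7 and 63.9 and 29.4 and 26. In RRS1 and NOP2 the groups lay well apart, and in BOP1 the replicates of a group differed about as much as the groups did. Of 29 enzymes of purine and pyrimidine synthesis 20 fell and 1 rose (median -0.48). CAD, which starts pyrimidine synthesis, went from 61.4 and 42.2 to 39.5 and 21.2 FPKM, CTPS1, which makes CTP, from 60.4 and 68 to 36 and 31.8, and IMPDH1, which leads to GTP, from 80.2 and 44.3 to 46.6 and 20.4. The riser was ADSSL1, the muscle form of adenylosuccinate synthase, from 0.268 and 0.0796 to 3.3 and 2.59 FPKM. Without the block 0 genes of either list fell at an adjusted p under 0.05, and rescaled without MIR6723 37 and 15 did.

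DNA repair genes of homologous recombination and the Fanconi pathway fell in 16 of 42 and rose in 1 (median -0.19), a fall in 5 when libraries were rescaled without MIR6723 and in 0 without the block. Without esiGFP 2 or esiFLI1 2 only 3 of these genes fell, without esiFLI1 1 7 and without esiGFP 1 10. The riser was the kinase ATM, from 5.51 and 6.73 to 9.24 and 14.7 FPKM. Surface proteins studied as Ewing sarcoma antigens fell in 6 of 19 and rose in 5 (median -0.13, and 0.02 rescaled without MIR6723). The rises numbered 1 without esiFLI1 2, without the block or with a filter of 5 FPKM, 2 without esiGFP 2 or esiFLI1 1, and 3 without each of the others. In this list STEAP2 fell from 25.9 and 36.9 to 12.8 and 17.8 FPKM and IL1RAP from 58.3 and 94.2 to 33 and 47.4, while CD274, which encodes PD-L1, rose from 0.262 and 0.246 to 1.28 and 1.98.

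**Figure D4:**
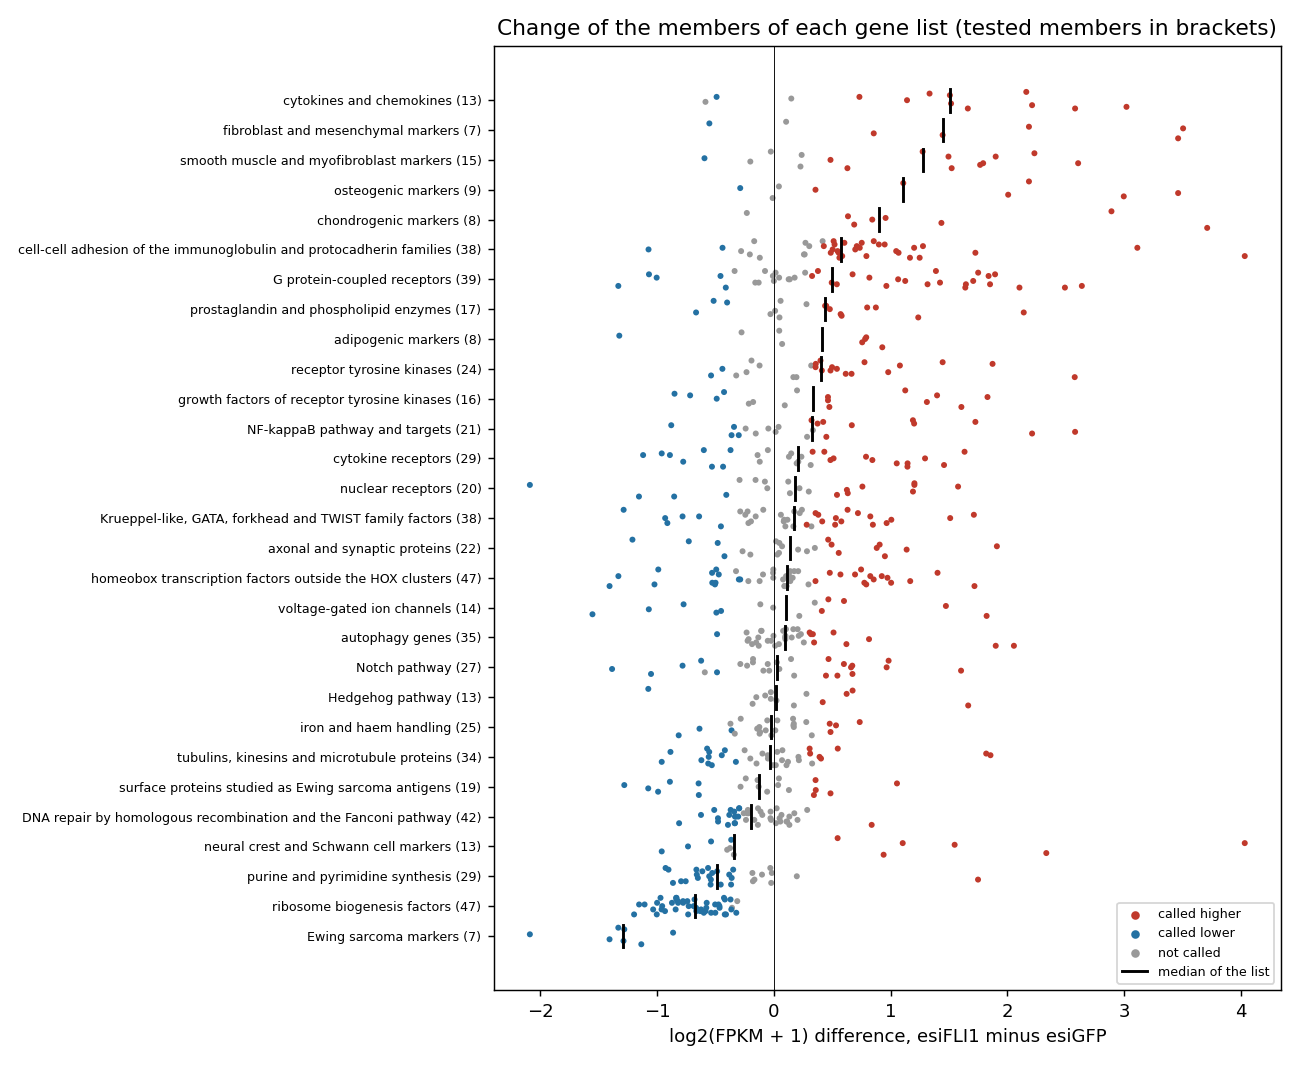
Log2(FPKM + 1) difference, esiFLI1 minus esiGFP, of each tested member (point) of the gene lists described here that have at least 7 tested members, sorted by the list's median (black bar); the number of tested members is in brackets. Cytokines and chemokines stand at the top with a median of 1.51 and Ewing sarcoma markers at the bottom with -1.29, and the points of the ribosome biogenesis factors lie closely packed below 0. Of the 13 cytokines and chemokines 6 passed the filter only through esiFLI1, and with no filter their list's median was 0.33.

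Some of the genes that changed by at least 2-fold in both pairs lie next to each other. Among 11624 tested genes with a place in the RefSeq gene order, 89 of the 491 that rose so stood in 41 runs of at least 2 neighbours, and 10 of the 94 that fell so in 5 runs. The longest runs held 3 genes, 7 of them, all of genes that rose. One holds F2RL2, F2R and F2RL1, and another holds S100A6, S100A4 and S100A3, calcium-binding proteins at 139 and 54.2, 43.4 and 33.4 and 0.909 and 0.237 FPKM in esiGFP and 357 and 185, 299 and 150.3 and 8.4 and 4.36 in esiFLI1. In another, the integrin gene ITGA4 went from 4.38 and 4.97 to 37.9 and 55.9 FPKM and its neighbour CERKL from 1.51 and 1.71 to 14.7 and 18.6. Lower runs include CAV2 with CAV1, and FEZF1 with its antisense RNA FEZF1-AS1 (40.8 and 34.5 to 13.3 and 7.9 FPKM). The labels do not state whether the counting used the strand, and values of overlapping neighbours are uncertain.

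Set against esiUSP9X, which shares transfection but not target and stands against the same esiFLI1 libraries, 5059 genes were called (42.1% of those tested), 2593 higher (21.6%) and 2466 lower (20.5%); 365 were called without the block. The 20 largest rises had log2 differences of 2.85 to 6.67 from esiUSP9X (largest limma adjusted p, 1.4e-05) and the 20 largest falls -2.59 to -1.10 (0.0010). C7, a complement component, was 6.16 and 8.83 FPKM in esiGFP, 1.29 and 1.06 in esiFLI1 and 3.91 and 3.42 in esiUSP9X, between the other 2 groups. KRT8, an epithelial keratin, was 7.63 and 4.12, 21.3 and 12 and 14.5 and 8.39 FPKM in the same order, with a mean in between. NT5E was at 10.6 and 13.5 FPKM in esiUSP9X, below both esiGFP libraries. TUBB3, a neuronal tubulin, was 224 and 131 FPKM in esiGFP, 157 and 85.2 in esiFLI1 and 145 and 98.9 in esiUSP9X. It was not called between the 2 knockdowns (limma adjusted p = 0.76), nor was GAPDH (0.22).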

How the data were processed

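RNA from 6 libraries of A673 cells was sequenced after ribosomal RNA depletion (2 µg total RNA, stranded kit, 75-nt single-end reads), per the labels' protocols. The deposited values are FPKM made by the authors, 1 per symbol and library; the submitters' processing notes name TopHat, Cufflinks, Cuffdiff, hg19 and GRCh37, without versions. Neither the annotation nor the use of strand is given in the sources used here. Of the table, 1 stray line was dropped, and 0 columns belonged to no sample. Depth is unknown, so no counting interval is given.

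Log2(FPKM + 1) values of all 6 libraries were fitted with limma 3.58.1 (R 4.3.3; eBayes with trend) with group means and the replicate number as a block (2 residual and 6.53 prior degrees of freedom), two-sided, with Benjamini-Hochberg adjustment over 12020 genes. The comparison was set up with libraries paired by replicate number. Deviations from the group means correlated between groups (0.680, 0.651 and 0.696), which is a finding from the data, not the design. Without the block there were 3 residual and 2.24 prior degrees of freedom. SE values come from the model. The fit was also run on libraries simulated from the fitted model itself, replicate effect included, so that run cannot check the pairing.

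The genes compared and the 35 gene lists (1073 entries) were chosen with earlier results of these data known. Named genes are FLI1 and EWSR1, the 20 largest changes per direction of at least 2-fold in both pairs without overlap, the 10 largest FPKM gains and losses among calls, genes from under 1 to at least 10 FPKM, and up to 6 called members a list (2 of the highest where none is called), without small RNAs, pseudogenes and sex-linked control genes. RET, ENG, IL6, CXCL1, F2RL1, CAV2, ITGA4, CERKL, S100 genes, KRT18 and lineage markers near 0 were named after their values were seen. Some items that the rule names are not reported here. GENCODE v29, on another build, gave length and GC content for 94.4% of genes by symbol, and RefSeq gave gene order and promoters (80.3% matched). Alternatives were other scalings, filters, pseudocounts, a GC correction, no block, the 4 libraries alone and each library left out. Figures used matplotlib 3.10.9.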

Additional observations from a re-analysis of the deposited data

Results flagged for a closer look

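Outside the comparison stand 4 genes that were left out because they were listed at 0 in both esiGFP libraries while both esiFLI1 libraries were above 1 FPKM. A listed 0 can be a failed estimate, and EEF1A1, which every cell uses to bring aminoacyl-tRNA to the ribosome, had 2928 and 3160 FPKM in esiFLI1 and 3197 and 3578 in esiUSP9X. MIR1260B was listed at 205 and 157 FPKM in esiFLI1, SNORD124 at 70.1 and 35.9, and TNFSF18, a cytokine of the tumour necrosis factor family, at 10.5 and 11.6, all 3 at 0 in both esiUSP9X libraries. No fold is given against a group listed at 0.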

How the results depend on the processing

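No gene named by the rule reversed its direction under the alternatives run, but the balance of all calls did in some. The main fit called 2520 genes higher and 2651 lower. Rescaled without MIR6723 it was 3500 and 1554, and with no filter on low values 2610 and 1866. Without the replicate block, which ignores the pairing, 344 genes were called (316 higher, 28 lower; 285 and 27 at 2-fold in both pairs), and 365 against esiUSP9X; 85 of the 226 named genes were still called. With a pseudocount of 0.1, 203 genes fell by 2-fold in both pairs. A filter of 5 FPKM, which tests fewer genes, left 1637 higher and 314 higher by 2-fold. Rescaled without MIR6723, 1554 genes were lower, 73 by 2-fold; the cause of these shifts was not tested. Leaving out 1 library in turn gave 2824 to 4852 calls, 1580 to 2416 higher and 1244 to 2436 lower, fewest without esiFLI1 2 (3434 calls without esiGFP 2). At 2-fold, which then rests on 1 pair where a compared library is missing, 505 to 706 rose and 116 to 272 fell, and against esiUSP9X 2827 to 5306 were called. In these fits a lone library is assumed to vary like the others. Without esiFLI1 2, 22 named genes lost their call, and without the others 2 to 12; 603 to 617 of the 617 calls at 2-fold were kept. With the 4 libraries alone 5 named genes lost it, with no filter 13, with quantile normalization 10, and with the rescaling 3. Median-ratio scaling and the GC correction with the block cost none.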

Other observations

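Small nucleolar RNAs, which guide the modification of ribosomal RNA, were lower in esiFLI1 in 25 of 65 tested symbols and higher in 3, with a median change of -0.83, and made up 16 of the 113 falls of at least 2-fold in both pairs. Several were listed at 0 in 1 or both esiFLI1 libraries, for example SNORA63, at 31.6 and 54.6 FPKM with esiGFP and 0 and 18.8 with esiFLI1. SNORD76, the most abundant of these falls, went from 6106 and 7327 to 852 and 1999 FPKM, and esiUSP9X was at 8119 and 3452. The largest log2 change of all, 7.84, was that of MIR4800, at 10.1 and 0 FPKM with esiGFP, 2192 and 263 with esiFLI1, and 0 and 772 with esiUSP9X. The naming rule left such symbols out, and these were chosen after their values were seen.

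Several gene groups moved in both directions or little. Autophagy genes rose in 9 of 35 and fell in 1 (median 0.10; 5 rose without either esiGFP library or esiFLI1 2): the receptor OPTN went from 4.62 and 3.82 FPKM to 18.3 and 23.3, and WIPI1, which binds phosphoinositides on forming autophagosomes, from 0.862 and 0.290 to 5.02 and 4.55. Enzymes of prostaglandins and phospholipids rose in 9 of 17 and fell in 3 (median 0.44), with HPGD, which inactivates prostaglandins, from 0.735 and 0.889 to 5.44 and 8.86 FPKM. The Notch pathway had 10 of 27 higher and 5 lower (median 0.03; 3 lower without esiGFP 1 or either esiFLI1 library): NOTCH2 rose from 17.5 and 12.1 to 35.2 and 25.1 FPKM, while the ligand JAG2 fell from 7.05 and 3.85 to 2.11 and 0.845 and the target HES1 from 58.7 and 54.4 to 30.3 and 34.8. In the Hedgehog pathway 4 of 13 rose and 1 fell: the co-receptor CDON rose from 3.10 and 3.23 to 12 and 12.3 FPKM, and the target GLI1 fell from 3.96 and 3.30 to 1.52 and 0.908. Voltage-gated ion channels split evenly, 5 of 14 in each direction, but 3 rose without esiGFP 2 or either esiFLI1 library and 2 fell without esiFLI1 2. Tubulins, kinesins and microtubule proteins rose in 7 of 34 and fell in 11, and iron and haem genes in 4 and 3 of 25, with medians of -0.03 and -0.02 that turned to 0.13 when libraries were rescaled without MIR6723. The microtubule counts were 4 and 3 without esiFLI1 2, 3 and 6 without esiGFP 2, 3 higher without either replicate 1 of these groups, and 1 and 0 without the block. Of the iron and haem genes 2 rose without either esiFLI1 library. TFRC, the transferrin receptor, fell from 95 and 133 to 53.6 and 75.3 FPKM.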
